A study of Mus musculus with 16 samples.

Results

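The genes described here encode secreted signals of blood vessel growth and the receptors that bind them. They are the ligand genes *Vegfa*, *Vegfb*, *Vegfc* and *Pgf*, the receptor genes *Kdr*, *Flt1* and *Flt4*, the co-receptor gene *Nrp1*, the angiopoietin gene *Angpt2* and its receptor gene *Tek*. Members were the entries of the count table whose gene symbol equalled one of these 10 names. All 10 were found among the 25611 entries of the table, and all 10 were among the 16630 genes with enough counts to be tested.

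Vascular endothelial growth factors are secreted by many cell types and bind receptor tyrosine kinases on endothelial cells. VEGFR2, encoded by *Kdr*, carries most of the growth signal, VEGFR1, encoded by *Flt1*, binds VEGF-A tightly and also exists as a soluble decoy, and VEGFR3, encoded by *Flt4*, is the receptor of VEGF-C in lymphatic and sprouting endothelium. Angiopoietin 2 is released by endothelial cells and acts on the receptor TIE2, encoded by *Tek*, often as an antagonist of angiopoietin 1, and thyroid follicles are wrapped in a dense capillary network.

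Thyroid RNA came from 16 female C57BL/6 mice, 4 in each of 4 groups. Wild-type mice (WT) and mice in which Cre under *Pax8* deletes exon 5 of *Glis3* (*Glis3*-Pax8Cre, alleles *Glis3* tm2Amj and *Pax8* tm1.1(cre)Mbu) were fed a normal diet (ND, NIH-31) or a low iodine diet (LID, TD.95125). The mice were 4 weeks old, given as 1 month in the labels, were weaned at 3 weeks and had been on the diet for 6 days. Cre under *Pax8* limits the deletion to cells that express *Pax8*, which in the thyroid are the follicular cells. Each group is named by genotype with the diet in brackets, as in WT(LID).

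Total counts ranged between 13892352, in *Glis3*-Pax8Cre(ND) replicate 1, and 461077969, in WT(ND) replicate 4. Levels are given as CPM, which are counts scaled to a common library size by the TMM method. For counting error alone, the limit that a zero count leaves (3 counts) lay at 0.00674 CPM in the deepest library and at 0.188 CPM in the shallowest. Group differences were tested with the quasi-likelihood method of edgeR in a fit of all 16 mice, and a gene was called at a Benjamini-Hochberg adjusted p under 0.05 over all genes tested. Fold changes are on the log2 scale.

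The targeted gene *Glis3* stood at 79.2, 85.8, 81.8 and 45.2 CPM for WT(ND). Its level was 105, 93.01, 101 and 85.8 CPM for *Glis3*-Pax8Cre(ND). On the LID its values were 125, 174, 165 and 161 CPM for the WT mice and 150.3, 119.5, 204 and 185 CPM for the *Glis3*-Pax8Cre mice. Counts over the whole gene do not separate the deleted exon from the others, so these values check nothing about the labels.

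A pair of libraries on the ND stood apart from their groups. The library labelled WT(ND) replicate 3 correlated across genes at 0.987 with *Glis3*-Pax8Cre(ND) replicate 2 and at no more than 0.978 with the other WT(ND) mice. Its *Pax8* level was 996 CPM, against 374 to 397 CPM in the other WT(ND) mice and 643 to 989 CPM in *Glis3*-Pax8Cre(ND). Its level of the iodide transporter gene *Slc5a5* was 81.8 CPM, against 132 to 187 CPM in the other WT(ND) mice and 8.43 to 15.8 CPM in *Glis3*-Pax8Cre(ND). Its *Pax8* level was above both ranges and nearer that of *Glis3*-Pax8Cre(ND), and its *Slc5a5* level was between them. The label of this library is thus in doubt, and it was kept in the group its label gives. *Pax8* and *Slc5a5* were chosen for this check after their values were seen.

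*Glis3*-Pax8Cre(ND) replicate 4 correlated at no more than 0.946 with its own group. Its 7 thymocyte markers summed to 2346 CPM, and the sums in replicates 1 to 3 were 11.1, 13.2 and 13.1 CPM. Over the 16 mice *Rag1* was the most abundant of them, the measure by which a marker is called most abundant throughout, at 1120.1 CPM in replicate 4 and 0 in replicate 1. The calls of the 10 genes that rest on the ND groups are therefore also given without both of these mice, an alternative chosen after seeing the data. It drops a WT(ND) mouse picked for its likeness to *Glis3*-Pax8Cre(ND), which can by itself widen differences between the ND groups. A larger change or smaller p without these mice is therefore no separate evidence for a difference.

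**Figure D1:**
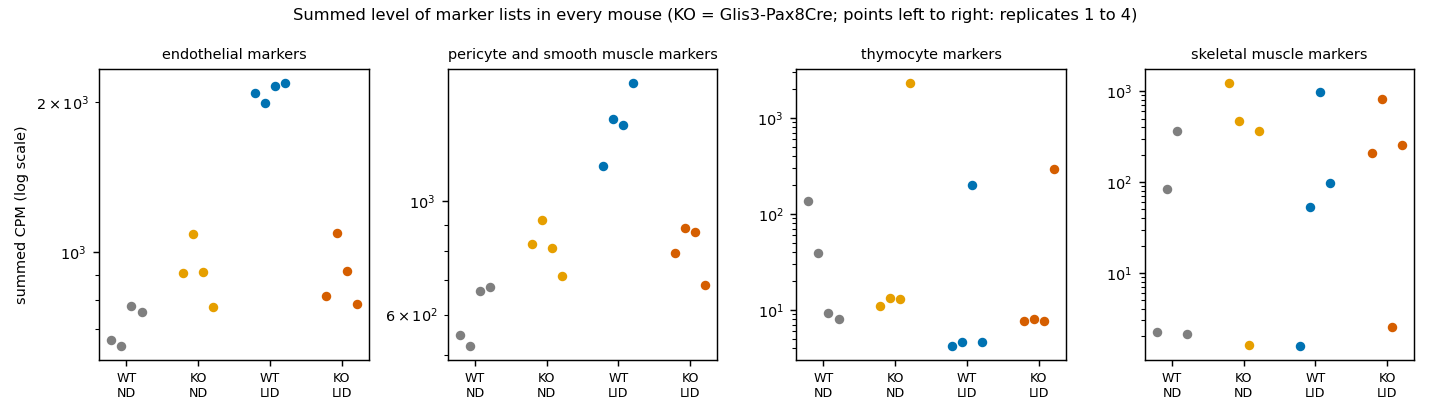
Summed CPM of 14 endothelial, 9 pericyte and smooth muscle, 7 thymocyte and 5 skeletal muscle markers in each of the 16 mice on log axes, with KO standing for Glis3-Pax8Cre. The WT(LID) mice are highest for endothelial markers, at 1998 to 2193 CPM, and a thymocyte sum far above the rest is seen in *Glis3*-Pax8Cre(ND) replicate 4.

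Per kilobase of exon, *Vegfa* was the most abundant member in each group, at 264 ± 28.2 CPM per kb (SD, n = 4) for WT and 264 ± 22.7 CPM per kb for *Glis3*-Pax8Cre mice on the ND, and 336 ± 36.3 and 229 ± 23.3 CPM per kb on the LID. *Angpt2* was the least abundant, at 1.54 ± 0.179, 1.81 ± 0.351, 4.58 ± 0.550 and 1.54 ± 0.382 CPM per kb in the same order. In WT(ND) the mean levels between them fell in the order *Vegfb* (27.3 ± 2.13), *Kdr* (20.7 ± 2.67), *Nrp1* (14.5 ± 1.72), *Pgf* (13.2 ± 2.59), *Flt1* (9.31 ± 1.21), *Tek* (7.31 ± 0.420), *Vegfc* (5.89 ± 2.47) and *Flt4* (2.86 ± 0.286) CPM per kb. Neighbours in this order whose mice overlapped were *Nrp1* and *Pgf*, *Pgf* and *Flt1* and *Tek* and *Vegfc*.

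In WT(LID) the order below *Vegfa* was *Kdr* (42.8 ± 1.80), *Flt1* (21.7 ± 1.44), *Vegfb* (20.9 ± 0.407), *Pgf* (17.4 ± 1.67), *Tek* (15.9 ± 1.24), *Nrp1* (15.3 ± 1.35), *Flt4* (8.20 ± 0.497) and *Vegfc* (7.15 ± 0.680) CPM per kb. The neighbours that overlapped there were *Flt1* and *Vegfb*, *Pgf* and *Tek*, *Tek* and *Nrp1* and *Flt4* and *Vegfc*. *Flt1* thus ranked below *Nrp1* in WT(ND) and above it in WT(LID). In *Glis3*-Pax8Cre(LID) the order was *Vegfa*, *Kdr*, *Vegfb*, *Nrp1*, *Flt1*, *Vegfc*, *Pgf*, *Tek*, *Flt4* and *Angpt2*, which again had *Nrp1* above *Flt1*.

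**Figure D2:**
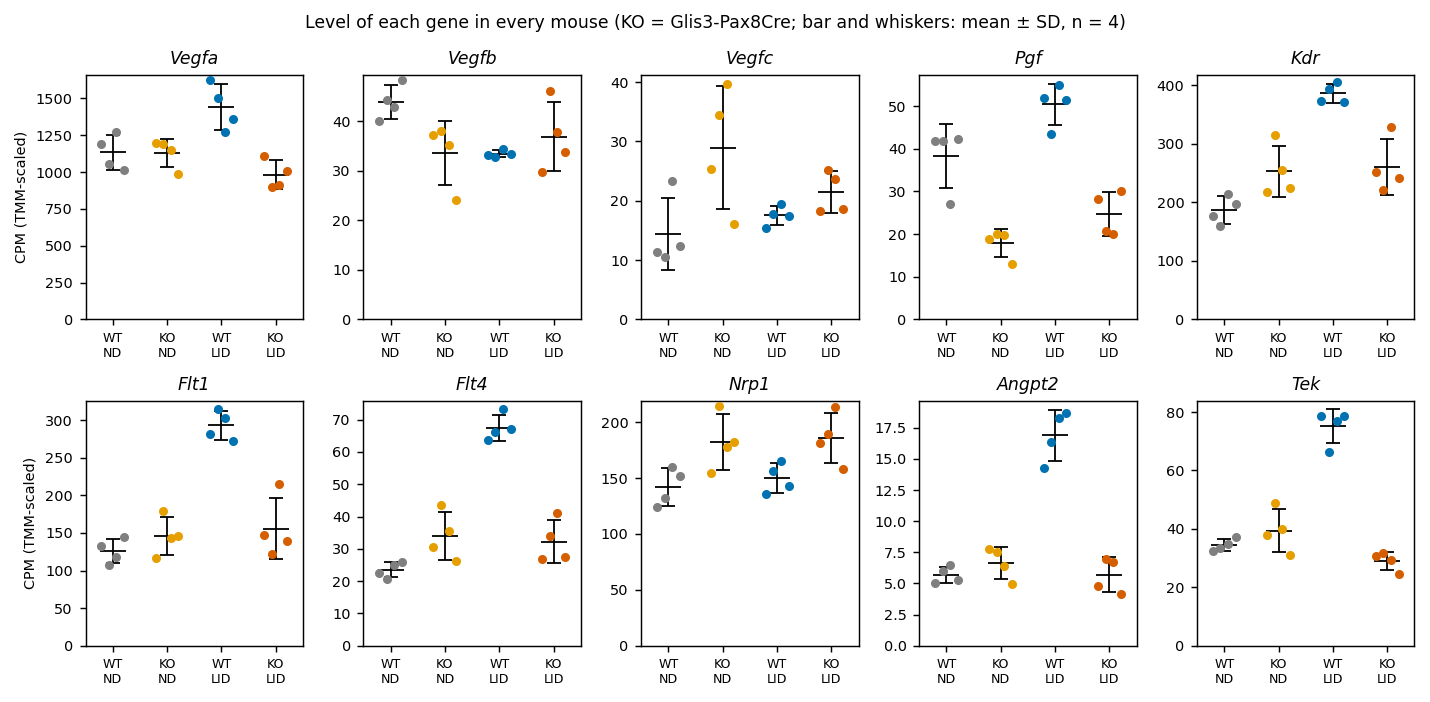
Level of each of the 10 genes in every mouse in TMM-scaled CPM on axes that start at 0, with points for mice and bars and whiskers for the mean and SD of 4 mice. *Kdr*, *Flt1*, *Flt4*, *Angpt2* and *Tek* are highest in the 4 WT(LID) mice, with no overlap with any other group.

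The promoter bases before the start of *Vegfa* and of 4 receptor genes, all called higher with the diet in WT mice, are shown to set their sequence beside their levels. RefSeq promoter entries (GRCm38.p6) were matched for 9 of the 10 members, and *Angpt2* had none. For each gene the 250 bases before the start in that promoter table were searched on both strands. For *Kdr* and *Flt1* that start lies upstream of the gene coordinates given with their levels. Capitals mark GGAA or its reverse complement, the core bound by ETS factors, a family that includes the endothelial marker *Erg*. The stretches lie at chr17:46032378-46032627 (minus strand, *Vegfa*), chr5:75978456-75978705 (minus strand, *Kdr*), chr5:147726012-147726261 (minus strand, *Flt1*), chr11:49609429-49609678 (plus strand, *Flt4*) and chr4:94739039-94739288 (plus strand, *Tek*).
Vegfa: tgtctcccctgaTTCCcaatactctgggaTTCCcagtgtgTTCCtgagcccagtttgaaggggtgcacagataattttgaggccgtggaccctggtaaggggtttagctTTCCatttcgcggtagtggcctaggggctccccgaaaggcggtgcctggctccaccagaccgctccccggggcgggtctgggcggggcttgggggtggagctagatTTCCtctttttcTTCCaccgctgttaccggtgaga
Kdr: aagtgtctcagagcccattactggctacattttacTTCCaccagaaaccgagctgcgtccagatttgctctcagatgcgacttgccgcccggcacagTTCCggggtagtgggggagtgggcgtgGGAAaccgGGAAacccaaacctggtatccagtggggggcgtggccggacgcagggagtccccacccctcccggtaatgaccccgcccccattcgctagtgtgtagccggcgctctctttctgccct
Flt1: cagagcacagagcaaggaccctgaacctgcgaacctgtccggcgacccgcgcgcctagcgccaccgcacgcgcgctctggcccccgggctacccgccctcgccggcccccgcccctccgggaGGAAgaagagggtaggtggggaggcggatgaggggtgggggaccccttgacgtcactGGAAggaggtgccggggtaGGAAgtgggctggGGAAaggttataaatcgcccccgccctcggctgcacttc
Flt4: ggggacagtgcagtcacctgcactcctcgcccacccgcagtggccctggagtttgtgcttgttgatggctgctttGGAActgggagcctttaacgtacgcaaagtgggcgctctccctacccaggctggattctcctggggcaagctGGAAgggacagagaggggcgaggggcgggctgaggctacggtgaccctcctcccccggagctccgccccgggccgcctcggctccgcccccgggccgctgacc
Tek: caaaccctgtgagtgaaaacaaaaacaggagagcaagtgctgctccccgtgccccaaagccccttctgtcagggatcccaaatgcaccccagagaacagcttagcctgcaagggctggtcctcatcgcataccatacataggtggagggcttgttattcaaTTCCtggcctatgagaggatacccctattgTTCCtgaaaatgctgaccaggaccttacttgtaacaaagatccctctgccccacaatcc

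GGAA occurred 6 times before *Vegfa*, 4 times before *Kdr*, 4 times before *Flt1*, 2 times before *Flt4* and 2 times before *Tek*. Among the members with an entry that are not shown, it occurred 4 times before *Nrp1*, 1 time before *Vegfb*, 1 time before *Vegfc* and 0 times before *Pgf*. It is short and was found in 93.4% of the 32851 promoter entries of the same length. TGACG, the core bound by CREB factors, occurred 2 times before *Flt1*, on opposite strands, and was not found in the stretches shown for the other 4 genes, while 17.8% of promoters held it. TGGGGGG, part of the site bound by GLIS factors, occurred 1 time before *Kdr* and was held by 7.67% of promoters. ACGTG, the core of the hypoxia response element, was in none of the 5 stretches and in 16.6% of promoters. *Vegfa* has another entry, within the gene and not shown (chr17:46025164-46025413), which held 1 ACGTG and 1 TGACG. These are letter matches in a short window and were not tested for binding.

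The comparison of *Glis3*-Pax8Cre(LID) with WT(LID) asks what loss of GLIS3 changes while iodine is low. Of the 10 genes, 7 were lower in *Glis3*-Pax8Cre(LID) and 0 higher, where 15.4% of all genes tested were lower and 14.9% higher. The 7 were the ligands *Vegfa* and *Pgf*, the receptors *Kdr*, *Flt1* and *Flt4*, and *Angpt2* with its receptor *Tek*. DESeq2 called 1 member higher, *Nrp1*, which was also the 1 member higher by edgeR at an unadjusted p under 0.05. The median was -0.74 over the 10 genes and 0.01 over all genes tested.

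The comparison of WT(LID) with WT(ND) asks how the normal gland responds to the diet. Here 6 genes rose, namely *Vegfa*, *Kdr*, *Flt1*, *Flt4*, *Angpt2* and *Tek*, and *Vegfb* fell by edgeR, where 20.9% of all genes were higher and 20.8% lower. *Pgf* was higher as well at an unadjusted p under 0.05. Both comparisons share the WT(LID) mice, so their values stand side by side and are not independent.

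In *Glis3*-Pax8Cre mice the diet left 0 of the 10 genes higher by edgeR and 1 lower, *Tek*, where 13.1% of all genes were higher and 12.3% lower. DESeq2 called 1 higher, *Pgf*, as did edgeR at an unadjusted p under 0.05. The diet response differed between genotypes for 6 of the 10 genes, each with a lower response in *Glis3*-Pax8Cre mice, where 7.41% of all genes had a lower and 4.43% a higher response. A higher response was called for 0 of the 10 by edgeR and by DESeq2, and for 1, *Vegfb*, at an unadjusted p under 0.05.

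**Figure D3:**
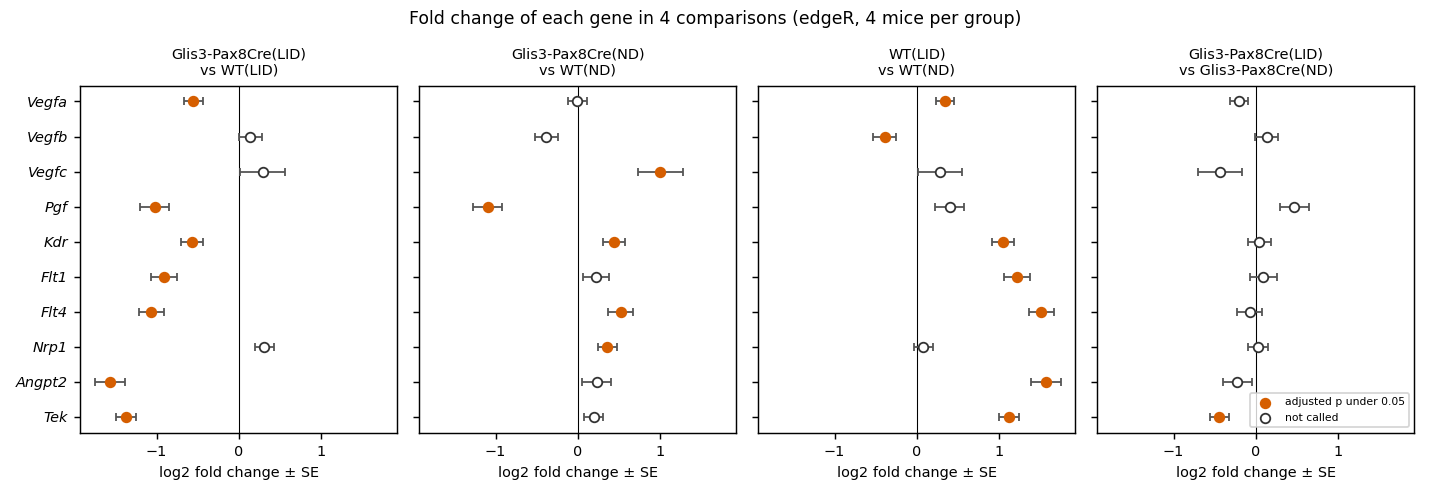
Log2 fold change of each gene in 4 comparisons, with whiskers of 1 standard error and filled points for an adjusted p under 0.05 (edgeR, 4 mice per group). The panel of *Glis3*-Pax8Cre(LID) against WT(LID) has 7 filled points, all below 0.

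Among the ligands, *Vegfa* (Entrez 22339, chromosome 17, 46016993 to 46032377, minus strand, mm10) encodes VEGF-A, the main ligand of VEGFR2. WT(LID) mice had 1624, 1499.8, 1272 and 1358 CPM. *Glis3*-Pax8Cre(LID) mice had 1112, 895, 912 and 1006 CPM. Every mouse of the second group was below every mouse of the first. The change was -0.55 (standard error 0.11, adjusted p = 0.00144 by edgeR).

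On the ND *Vegfa* was at 1192, 1053, 1274 and 1014 CPM for WT and 1195, 1187, 1149 and 987 CPM for *Glis3*-Pax8Cre. The genotypes overlapped, with a change of -0.0048 (95% interval -0.22 to 0.21). The rise with the diet in WT mice was 0.34 (standard error 0.11, adjusted p = 0.0209 by edgeR), and the highest WT(ND) mouse, replicate 3, was above the lowest WT(LID) mouse. This call was lost with scaling by library size alone (0.19, adjusted p = 0.23) and without replicate 2 or 4 of WT(ND) or replicate 1 or 2 of WT(LID) (adjusted p from 0.0541 to 0.0742). The diet response of *Glis3*-Pax8Cre mice minus that of WT mice was -0.55 (standard error 0.16, adjusted p = 0.0336 by edgeR). That call was lost with scaling by library size alone (adjusted p = 0.0698), with no filter (adjusted p = 0.0502) and without replicate 2 or 4 of WT(ND), replicate 1, 2 or 3 of *Glis3*-Pax8Cre(ND), replicate 1 or 2 of WT(LID) or replicate 2, 3 or 4 of *Glis3*-Pax8Cre(LID) (adjusted p from 0.0521 to 0.0716). When both mice that stood apart were left out, the rise in WT mice was 0.41 (adjusted p = 0.00481) and the interaction -0.69 (adjusted p = 0.0056).

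*Pgf* (Entrez 18654, chromosome 12, 85166639 to 85177313, minus strand) encodes placental growth factor, a ligand of VEGFR1. WT(ND) mice held 41.8, 41.9, 26.96 and 42.3 CPM, and *Glis3*-Pax8Cre(ND) mice 18.9, 19.9, 19.8 and 13.01 CPM. WT(LID) mice held 51.8, 43.5, 54.9 and 51.4 CPM, and *Glis3*-Pax8Cre(LID) mice 28.3, 20.7, 19.998 and 30.1 CPM. *Pgf* was lower in *Glis3*-Pax8Cre mice on either diet, with no overlap between genotypes, and WT(ND) replicate 3 was the lowest of its group. The change was -1.09 (standard error 0.18, adjusted p = 0.000763) on the ND and -1.03 (standard error 0.18, adjusted p = 0.000393) on the LID by edgeR. Without both libraries that stood apart the ND value was -1.09 (adjusted p = 4.85e-05). A difference between the diets was not detected (interaction 0.07, 95% interval -0.41 to 0.55, adjusted p = 0.896). With the diet *Pgf* changed by 0.40 in WT mice (adjusted p = 0.0777) and by 0.47 in *Glis3*-Pax8Cre mice (adjusted p = 0.0623), neither of which was called by edgeR. The diets did not overlap in either genotype, and in *Glis3*-Pax8Cre mice the nearest values were 19.9 and 19.998 CPM. The rise in WT mice was called with the 8 WT mice alone (adjusted p = 0.0481) and without *Glis3*-Pax8Cre(ND) replicate 4 (adjusted p = 0.0369). The rise in *Glis3*-Pax8Cre mice was called by DESeq2 (adjusted p = 0.0449), without WT(ND) replicate 3 (adjusted p = 0.0394) and without *Glis3*-Pax8Cre(LID) replicate 3 (adjusted p = 0.0479). Without both mice that stood apart neither was called by edgeR. The values were then 0.275 in WT mice (adjusted p = 0.0922) and 0.33 in *Glis3*-Pax8Cre mice (adjusted p = 0.0681).

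*Vegfc* (Entrez 22341, chromosome 8, 54077532 to 54186454, plus strand) encodes the main ligand of VEGFR3. Its level was 11.4, 10.5, 23.4 and 12.4 CPM across WT(ND) mice and 25.3, 34.5, 39.7 and 16.1 CPM across *Glis3*-Pax8Cre(ND) mice. The overlap came from WT(ND) replicate 3, which was above *Glis3*-Pax8Cre(ND) replicate 4, the same mice that stood apart as libraries. By edgeR the change was 1.01 (standard error 0.27, adjusted p = 0.019) with these mice and 1.55 (standard error 0.17, adjusted p = 1.04e-05) without them. As these were the highest WT(ND) and the lowest *Glis3*-Pax8Cre(ND) mouse for *Vegfc*, leaving them out widens the difference by construction. With single mice left out, the call was lost without replicate 1, 2 or 4 of WT(ND) or replicate 3 of *Glis3*-Pax8Cre(ND) (adjusted p from 0.0595 to 0.0614).

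Under the LID *Vegfc* was at 15.4, 17.8, 19.5 and 17.4 CPM for WT and 18.2, 25.3, 23.6 and 18.6 CPM for *Glis3*-Pax8Cre, which overlapped (change 0.29, adjusted p = 0.461 by edgeR). The diet gave 0.28 in WT mice (adjusted p = 0.437) and -0.44 in *Glis3*-Pax8Cre mice (adjusted p = 0.253), neither of which was called. Without both mice that stood apart these were 0.62 (adjusted p = 0.00416) and -0.65 (adjusted p = 0.00503). The interaction was -0.72 (adjusted p = 0.252) with them and -1.27 (adjusted p = 0.00104) without. Leaving out WT(ND) replicate 3 alone gave 0.62 for the diet in WT mice (adjusted p = 0.0459) and -1.07 for the interaction (adjusted p = 0.0396).

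*Vegfb* (Entrez 22340, chromosome 19, 6982472 to 6987651, minus strand) encodes a further ligand of VEGFR1. It ranged from 40.1 to 48.3 CPM for WT and 24.2 to 38.1 CPM for *Glis3*-Pax8Cre mice on the ND, and from 32.8 to 34.4 CPM for WT and 29.8 to 46.1 CPM for *Glis3*-Pax8Cre mice on the LID. It was lower in every WT(LID) mouse than in any WT(ND) mouse (-0.39, standard error 0.14, adjusted p = 0.0328 by edgeR). That call was lost without replicate 2, 3 or 4 of WT(ND) or replicate 1, 2, 3 or 4 of WT(LID) (adjusted p from 0.053 to 0.0922). On the ND the genotypes did not overlap, with a change of -0.38 that was not called (adjusted p = 0.0639) except without *Glis3*-Pax8Cre(LID) replicate 2 (adjusted p = 0.0398). The values without both mice that stood apart were -0.39 for the diet in WT mice (adjusted p = 0.0127) and -0.26 on the ND (adjusted p = 0.152).

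Among the receptors, *Kdr* (Entrez 16542, chromosome 5, 75933270 to 75978428, minus strand) was measured at 177, 159, 215 and 196 CPM (WT(ND)) and 217, 315, 255 and 225 CPM (*Glis3*-Pax8Cre(ND)). With the LID it was at 374, 393, 406 and 372 CPM (WT) and 251, 221, 329 and 241 CPM (*Glis3*-Pax8Cre). All WT(LID) mice were above all mice of the other groups. *Kdr* rose with the diet in WT mice by 1.05 (standard error 0.14, adjusted p = 2.59e-05), and *Glis3*-Pax8Cre(LID) differed from WT(LID) by -0.57 (standard error 0.14, adjusted p = 0.00512), by edgeR. In *Glis3*-Pax8Cre mice the diet changed *Kdr* by 0.04 (95% interval -0.22 to 0.31).

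*Flt1* (Entrez 14254, chromosome 5, 147562196 to 147725988, minus strand) had 133, 107, 118 and 145 CPM on the ND in WT mice and 117, 179, 143 and 146 CPM in *Glis3*-Pax8Cre mice. On the LID it had 282, 315, 303 and 273 CPM in WT mice and 147, 122, 215 and 139 CPM in *Glis3*-Pax8Cre mice. The *Glis3*-Pax8Cre(LID) mice lay below all WT(LID) mice and, apart from replicate 3, within the range of the ND mice. *Glis3*-Pax8Cre(LID) differed from WT(LID) by -0.91 (standard error 0.16, adjusted p = 0.000514), and the diet gave 1.22 in WT mice (standard error 0.16, adjusted p = 2.92e-05), by edgeR. Whole-gene counts do not separate the membrane-bound from the soluble form. The ratio of *Flt1* to *Kdr* counts was 0.732 to 0.802 for WT and 0.550 to 0.654 for *Glis3*-Pax8Cre mice on the LID, and 0.551 to 0.752 and 0.537 to 0.649 on the ND. The overlap on the ND came from WT(ND) replicate 3 (0.551), and the other WT(ND) mice had 0.752, 0.674 and 0.736. These ratios were not tested.

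*Flt4* (Entrez 14257, chromosome 11, 49609679 to 49652739, plus strand) amounted to 22.5, 20.8, 25.1 and 25.9 CPM for WT(ND) mice and 30.4, 43.4, 35.4 and 26.2 CPM for *Glis3*-Pax8Cre(ND) mice. It amounted to 63.5, 66.1, 73.2 and 67.1 CPM for WT(LID) mice and 26.7, 33.8, 40.9 and 27.4 CPM for *Glis3*-Pax8Cre(LID) mice. The WT(LID) mice stood clear of every other group. In WT mice *Flt4* rose with the diet by 1.52 (standard error 0.15, adjusted p = 2.17e-06), and between the LID groups it changed by -1.07 (standard error 0.15, adjusted p = 8.38e-05), by edgeR.

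The co-receptor gene *Nrp1* (Entrez 18186, chromosome 8, 128359073 to 128505475, plus strand) encodes neuropilin 1, which binds VEGF-A and presents it to VEGFR2. It shares 80 exon bases, 0.818% of its exons, with *Mir1903*. Its ND level was 124, 132, 160.1 and 152 CPM (WT) and 154, 215, 178 and 182 CPM (*Glis3*-Pax8Cre), and its LID level 136, 156, 165 and 142 CPM (WT) and 182, 189, 213 and 158 CPM (*Glis3*-Pax8Cre). The genotypes overlapped on either diet, and no group stood clear of the others. The diet gave 0.08 in WT mice (95% interval -0.15 to 0.31). *Glis3*-Pax8Cre(LID) against WT(LID) gave 0.31 (standard error 0.12, adjusted p = 0.0579 by edgeR), which was not called, while DESeq2 called it (adjusted p = 0.0421), as did a fit of the 8 LID mice alone (adjusted p = 0.0393) and scaling by library size alone (0.45, adjusted p = 0.00392). Leaving out single mice, it was called without *Glis3*-Pax8Cre(ND) replicate 1 (adjusted p = 0.0475) or 2 (adjusted p = 0.0453) and without *Glis3*-Pax8Cre(LID) replicate 4 (adjusted p = 0.0313).

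In the angiopoietin system, *Angpt2* (Entrez 11601, chromosome 8, 18690263 to 18741562, minus strand) lies within *Mcph1* on the opposite strand, with 0 shared exon bases, and counting ignored strand. ND values were 5.003, 5.9998, 6.44 and 5.26 CPM in WT mice and 7.78, 7.55, 6.36 and 4.96 CPM in *Glis3*-Pax8Cre mice. LID values were 14.2, 16.4, 18.3 and 18.7 CPM in WT mice and 4.83, 6.996, 6.76 and 4.15 CPM in *Glis3*-Pax8Cre mice. The 4 WT(LID) mice were above all the other mice. *Angpt2* rose with the diet in WT mice by 1.57 (standard error 0.18, adjusted p = 7.69e-06), and *Glis3*-Pax8Cre(LID) stood at -1.57 against WT(LID) (standard error 0.18, adjusted p = 1.22e-05), by edgeR. The ratio of *Angpt2* to *Angpt1* counts within a library was 4.02 to 5.31 in WT(LID) and 0.788 to 2.56 in the other groups. *Angpt1* shares 737 exon bases, 14.2% of its exons, with an antisense gene that has no entry in the count table.

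*Tek* (Entrez 21687, chromosome 4, 94739289 to 94874976, plus strand) stood at 32.6, 33.3, 34.8 and 37.1 CPM for WT(ND) and 37.8, 48.7, 39.9 and 30.97 CPM for *Glis3*-Pax8Cre(ND). For WT(LID) it stood at 78.7, 66.4, 76.9 and 78.6 CPM and for *Glis3*-Pax8Cre(LID) at 30.7, 31.6, 29.2 and 24.4 CPM. Every *Glis3*-Pax8Cre(LID) mouse was below every WT(LID) mouse and also below every WT(ND) mouse, the latter pair of groups not being tested. Between the LID groups *Tek* changed by -1.38 (standard error 0.12, adjusted p = 7.38e-07), and with the diet in WT mice by 1.12 (standard error 0.12, adjusted p = 3.06e-06), by edgeR. In *Glis3*-Pax8Cre mice *Tek* changed by -0.44 with the diet (standard error 0.12, adjusted p = 0.0122 by edgeR), with overlap. That call was lost with the 8 *Glis3*-Pax8Cre mice alone (adjusted p = 0.0674). It held when the replicate number entered as a block for those 8 mice. Leaving out both mice that stood apart gave -0.55 (adjusted p = 0.00137).

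The diet response of *Glis3*-Pax8Cre mice minus that of WT mice was -1.005 for *Kdr* (adjusted p = 0.00315), -1.13 for *Flt1* (adjusted p = 0.00444), -1.59 for *Flt4* (adjusted p = 0.000204), -1.80 for *Angpt2* (adjusted p = 0.000284) and -1.57 for *Tek* (adjusted p = 2.41e-05), by edgeR. These 5 calls held in each of the 16 fits that left out a mouse. With both mice that stood apart left out, the interaction was -1.15 for *Kdr* (adjusted p = 0.00112), -1.12 for *Flt1* (adjusted p = 0.00874), -1.75 for *Flt4* (adjusted p = 7.26e-05), -1.999 for *Angpt2* (adjusted p = 7.12e-05) and -1.69 for *Tek* (adjusted p = 6.25e-06). The diet response of WT mice was then 1.13 for *Kdr* (adjusted p = 1.79e-05), 1.20 for *Flt1* (adjusted p = 0.000127), 1.56 for *Flt4* (adjusted p = 1.84e-06), 1.65 for *Angpt2* (adjusted p = 3.53e-06) and 1.14 for *Tek* (adjusted p = 1.22e-06).

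**Figure D4:**
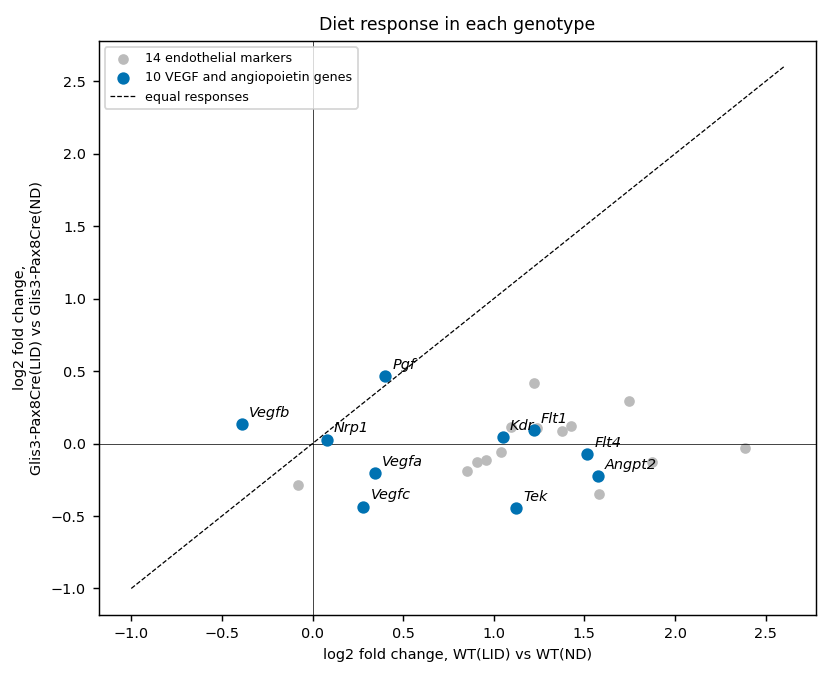
Log2 fold change with the LID in WT mice (horizontal) and in Glis3-Pax8Cre mice (vertical) for the 10 genes and 14 endothelial markers, with a dashed line for equal responses. *Kdr*, *Flt1*, *Flt4*, *Angpt2* and *Tek* lie from 1.05 to 1.57 on the horizontal axis and from -0.44 to 0.09 on the vertical.

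On the ND, 4 of the 10 genes were higher in *Glis3*-Pax8Cre mice than in WT mice and 1 was lower, where 10.3% of all genes tested were higher and 9.25% lower. The 4 were *Vegfc*, *Kdr* (0.44, adjusted p = 0.0349), *Flt4* (0.52, adjusted p = 0.0251) and *Nrp1* (0.36, adjusted p = 0.0416), and the lower gene was *Pgf*, by edgeR. *Kdr* and *Flt4* did not overlap between the groups, while *Vegfc* and *Nrp1* did. In a fit of the 8 ND mice alone *Pgf* was the 1 member called.

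The *Kdr* call on the ND was lost without replicate 1, 2 or 4 of WT(ND) or replicate 2 or 3 of *Glis3*-Pax8Cre(ND) (adjusted p from 0.0567 to 0.107). That of *Flt4* was lost without replicate 1 or 2 of WT(ND) or replicate 2 or 3 of *Glis3*-Pax8Cre(ND) (adjusted p from 0.0569 to 0.0777). That of *Nrp1* was lost without replicate 1, 2 or 4 of WT(ND), replicate 2, 3 or 4 of *Glis3*-Pax8Cre(ND), replicate 4 of WT(LID) or replicate 1 of *Glis3*-Pax8Cre(LID) (adjusted p from 0.0517 to 0.117). Without both mice that stood apart the values were 0.57 for *Kdr* (adjusted p = 0.0117), 0.67 for *Flt4* (adjusted p = 0.00666) and 0.43 for *Nrp1* (adjusted p = 0.0296), and again 4 members were called higher and 1 lower.

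Of 14 endothelial markers 13 rose with the diet in WT mice (20.9% of all genes tested), 10 were lower in *Glis3*-Pax8Cre than in WT mice on the LID (15.4% of all genes), and 4 were higher on the ND (10.3% of all genes). Their medians were 1.23, -0.82 and 0.36, and -0.04 for the diet in *Glis3*-Pax8Cre mice. Their diet response was lower in *Glis3*-Pax8Cre mice for 13 of the 14 and for 7.41% of all genes. The summed level was 667, 646, 779 and 759 CPM for WT(ND), 907, 1086, 912 and 777 CPM for *Glis3*-Pax8Cre(ND), 2092, 1998, 2156 and 2193 CPM for WT(LID) and 815, 1092, 915 and 785 CPM for *Glis3*-Pax8Cre(LID). *Eng* was the most abundant over the 16 mice, though not in the ND groups. In bulk RNA, fewer endothelial cells and less RNA of a gene per cell cannot be told apart, and the part of these markers in the results was not tested.

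Relative to the mean of the 14 markers in the same mouse, *Flt1* was at 1.73 ± 0.174 (log2, SD, n = 4) for WT(LID) and 1.73 ± 0.428 for *Glis3*-Pax8Cre(LID), and *Kdr* at 2.13 ± 0.133 and 2.49 ± 0.333. *Tek* was at -0.24 ± 0.079 and -0.67 ± 0.142, and *Angpt2* at -2.39 ± 0.182 and -3.04 ± 0.211, with no overlap between these groups for either gene. *Nrp1* was at 1.94 ± 0.085 for WT and 1.97 ± 0.237 for *Glis3*-Pax8Cre mice with the ND, and at 0.76 ± 0.192 for WT and 2.01 ± 0.168 for *Glis3*-Pax8Cre mice with the LID. Against the mean of the markers, *Tek* and *Angpt2* thus had lower values in *Glis3*-Pax8Cre mice on the LID. Single markers changed by -2.05 to 0.40 between the LID groups, and the changes of *Tek* (-1.38) and *Angpt2* (-1.57) lay within that range. Relative to the marker mean, every WT(LID) mouse was below all other mice for *Nrp1*, and likewise for *Vegfb* (-1.40 ± 0.083) and *Vegfc* (-2.34 ± 0.186). The mean of *Vegfa* was lowest there too (4.02 ± 0.178), with overlap. A gene whose own level stays flat while the markers rise takes lower values on this scale. These differences were not tested.

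**Figure D5:**
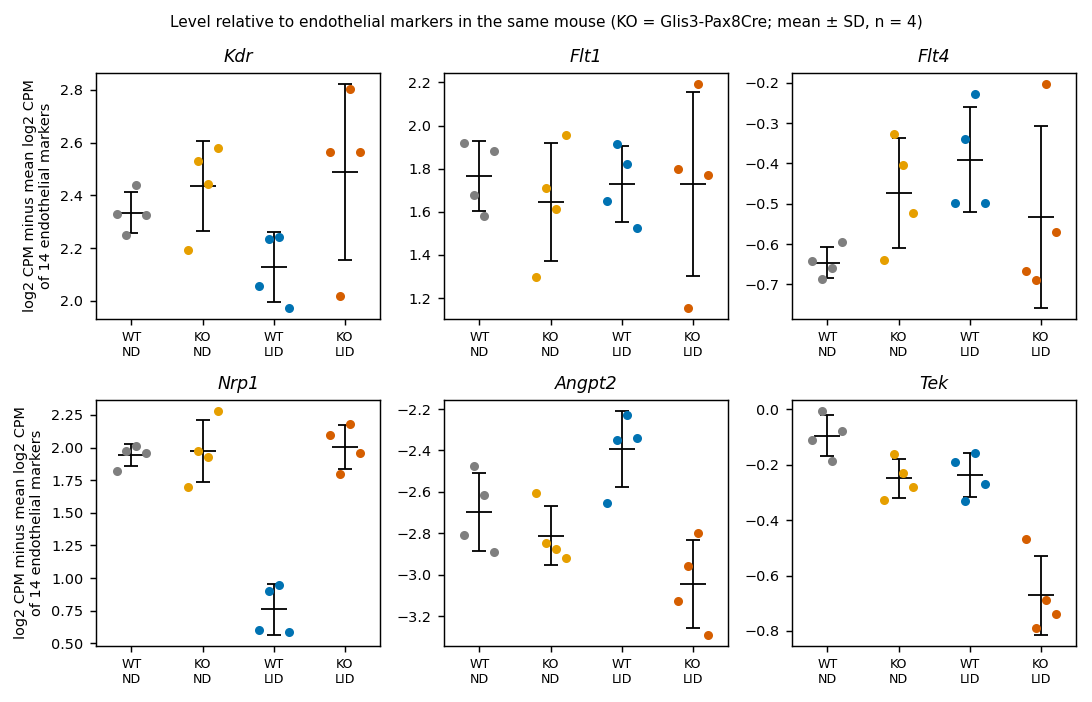
Log2 CPM of 6 genes minus the mean log2 CPM of 14 endothelial markers in the same mouse, with points for mice and bars and whiskers for the mean and SD of 4 mice. *Nrp1* lies from 0.59 to 0.95 in WT(LID), below all other mice, and *Tek* is lowest in Glis3-Pax8Cre(LID).

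The rest of the family held 7 genes, all tested. On the LID 4 were lower in *Glis3*-Pax8Cre mice and 0 higher by edgeR, also at an unadjusted p under 0.05 and by DESeq2, with a median of -0.74, while 15.4% of all genes were lower and 14.9% higher. *Tie1*, which encodes the receptor partner of TIE2, was at 169.5, 159, 175 and 188 CPM for WT(LID) and 58.1, 87.6, 71.2 and 67.4 CPM for *Glis3*-Pax8Cre(LID), with no overlap (-1.28, adjusted p = 7.4e-06 by edgeR). *Ptprb*, the phosphatase that acts on TIE2, differed by -1.34 (adjusted p = 3.89e-06), the second neuropilin gene *Nrp2* by -0.80 (adjusted p = 0.00122) and *Svep1*, a matrix ligand of TIE1, by -0.74 (adjusted p = 0.0215), each with no overlap. *Angpt1* (-0.32), *Angpt4* (-0.42) and *Vegfd* (-0.30) were not called. With each mouse left out *Angpt4* ranged from -0.6 to 0.001 and *Vegfd* from -0.53 to -0.19. The *Svep1* call was lost without replicate 2 of WT(LID) or replicate 2 of *Glis3*-Pax8Cre(LID) (adjusted p from 0.0601 to 0.0633). *Svep1* shares 2244 exon bases, 13.9% of its exons, with a noncoding gene of the opposite strand that has no entry in the count table.

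With the diet in WT mice *Tie1* (1.29), *Ptprb* (1.09) and *Svep1* (0.90) rose by edgeR, 3 of the 7, beside 20.9% of all genes. *Vegfd* (0.68, adjusted p = 0.064) was not called, although the groups did not overlap. It was called by DESeq2 (adjusted p = 0.0329), with the 8 WT mice alone (adjusted p = 0.0153) and without WT(ND) replicate 4 (adjusted p = 0.0412) or *Glis3*-Pax8Cre(ND) replicate 1 (adjusted p = 0.024) or 4 (adjusted p = 0.049). In *Glis3*-Pax8Cre mice 0 of the 7 were called by edgeR with TMM scaling and all 16 mice, beside 13.1% of all genes higher and 12.3% lower, while *Angpt1* (-0.53, adjusted p = 0.0805) was the 1 gene past an unadjusted p of 0.05 and was called by DESeq2 (adjusted p = 0.049) and with scaling by library size alone (adjusted p = 0.042). With each mouse left out *Angpt1* ranged from -0.63 to -0.28. Without both mice that stood apart it was at -0.28 (adjusted p = 0.278 by edgeR). With the diet in *Glis3*-Pax8Cre mice *Vegfd* was at 0.51 (adjusted p = 0.21) and was called without *Glis3*-Pax8Cre(ND) replicate 1 (0.84, adjusted p = 0.0249). Without both mice that stood apart *Vegfd* was at 0.39 (adjusted p = 0.373 by edgeR). The interaction was called for *Tie1* (-1.52, adjusted p = 0.000142) and *Ptprb* (-1.22, adjusted p = 0.000653), beside 7.41% of all genes lower. On the ND *Nrp2* was at 68.3, 66.2, 42.5 and 72.4 CPM (WT) and 38.6, 47.9, 36.1 and 35.1 CPM (*Glis3*-Pax8Cre), a change of -0.66 (adjusted p = 0.00936 by edgeR), and it was the 1 gene of the 7 called, beside 9.25% of all genes lower. The overlap came from WT(ND) replicate 3, and without both mice that stood apart the change was -0.74 (adjusted p = 0.00113).

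Genes known to respond to VEGF in endothelial cells were summarised as a list of 16. On the LID 13 were lower in *Glis3*-Pax8Cre mice and 1, *Esm1*, was higher, with a median of -1.10, where 15.4% of all genes were lower and 14.9% higher. With the diet in WT mice 12 rose and 1, again *Esm1*, fell, with a median of 1.11, beside 20.9% and 20.8% of all genes. *Esm1*, which encodes endocan, is named after its values were seen. It was at 61.8, 61.7, 67.6 and 58.1 CPM for WT(LID) and 129, 183, 183 and 140.4 CPM for *Glis3*-Pax8Cre(LID), with no overlap (1.35, adjusted p = 5.45e-05 by edgeR). On the ND 2 of the 16 were higher and 1 lower in *Glis3*-Pax8Cre mice, near the 10.3% and 9.25% of all genes. With the diet in *Glis3*-Pax8Cre mice 3 of the 16 rose and 2 fell, near the 13.1% and 12.3% of all genes. The interaction was lower for 11, beside 7.41% of all genes.

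The endothelial nitric oxide synthase gene *Nos3* was at 72.02, 65.8, 69.9 and 66.5 CPM for WT(LID) and 16.6, 20.5, 19.8 and 13.8 CPM for *Glis3*-Pax8Cre(LID), far apart in all mice (-1.96, adjusted p = 5.24e-08 by edgeR). The Notch feedback gene *Nrarp* changed by -1.70 (adjusted p = 2.81e-07), the apelin receptor gene *Aplnr* by -1.69 (adjusted p = 2.54e-06) and the transcription factor gene *Egr3* by -1.62 (adjusted p = 0.0338), with no overlap for any. *Egr3* ranged from 0.439 to 2.41 CPM on the LID, and its call was lost without replicate 2, 3 or 4 of WT(LID) or replicate 1, 2 or 3 of *Glis3*-Pax8Cre(LID) (adjusted p from 0.0594 to 0.0853) and with scaling by library size alone (adjusted p = 0.0503). *Nrarp* rose by 0.55 with the diet in *Glis3*-Pax8Cre mice (adjusted p = 0.00724), a call lost when the replicate number entered as a block for the 8 *Glis3*-Pax8Cre mice (0.55, adjusted p = 0.057) and with scaling by library size alone (0.41, adjusted p = 0.0552).

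Of 13 hypoxia genes, 4 were lower and 2 higher in *Glis3*-Pax8Cre mice on the LID, with a median of -0.22, where 15.4% of all genes tested were lower and 14.9% higher. *Epas1*, which encodes HIF-2α and is abundant in endothelium, changed by -0.89 (adjusted p = 9.06e-05) and rose by 0.88 with the diet in WT mice (adjusted p = 7.14e-05). The glucose transporter gene *Slc2a1* changed by -0.82 (adjusted p = 2.02e-05), *Hif1a* by -0.55 (adjusted p = 0.00338) and the mitophagy gene *Bnip3* by 0.82 (adjusted p = 0.000137), by edgeR and with no overlap. The fall of *Hif1a* with the diet in *Glis3*-Pax8Cre mice (-0.37, adjusted p = 0.042) was not called when the replicate number entered as a block for those 8 mice (-0.38, adjusted p = 0.0882) or for all 16 (adjusted p = 0.0619). That call was also lost with no filter (adjusted p = 0.0539), with the 8 *Glis3*-Pax8Cre mice alone (adjusted p = 0.0835) and without replicate 1, 2 or 3 of *Glis3*-Pax8Cre(ND), replicate 2, 3 or 4 of WT(LID) or replicate 2, 3 or 4 of *Glis3*-Pax8Cre(LID) (adjusted p from 0.0503 to 0.118). On the ND 2 of the 13 were higher and 3 lower in *Glis3*-Pax8Cre mice, beside 10.3% and 9.25% of all genes. *Bnip3* was 1 of the 2 (0.42, adjusted p = 0.0268), a call lost with the 8 ND mice alone (adjusted p = 0.0816) and without replicate 1 or 2 of WT(ND) or replicate 1 or 3 of *Glis3*-Pax8Cre(ND) (adjusted p from 0.0681 to 0.0845). The diet raised 3 and lowered 4 of the 13 in WT mice, beside 20.9% and 20.8% of all genes. In *Glis3*-Pax8Cre mice it raised 1 and lowered 3, beside 13.1% and 12.3%.

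Markers of other cells also differed between the groups, and their part in the results was not tested. Over all genes tested, 15.4% were lower and 14.9% higher in *Glis3*-Pax8Cre mice on the LID, and 9.25% lower and 10.3% higher on the ND. With the diet 20.9% rose and 20.8% fell in WT mice, 13.1% rose and 12.3% fell in *Glis3*-Pax8Cre mice, and the interaction was higher for 4.43% and lower for 7.41%. The marker lists are short and were not tested against these shares. Of 9 pericyte and smooth muscle markers, 6 were lower in *Glis3*-Pax8Cre mice on the LID, with *Rgs5* the most abundant, and 6 rose with the diet in WT mice. On the ND 2 were higher in *Glis3*-Pax8Cre mice, the diet raised 2 and lowered 1 in *Glis3*-Pax8Cre mice, and the interaction was lower for 4. Their sums were 547, 519, 667 and 679 CPM for WT(ND), 824, 919, 809 and 714 for *Glis3*-Pax8Cre(ND), 1174, 1450.5, 1407 and 1707 for WT(LID) and 791, 887, 872 and 685 CPM for *Glis3*-Pax8Cre(LID). Of 5 lymphatic markers tested, 3 were higher in *Glis3*-Pax8Cre mice on the ND and 1, *Pdpn*, was lower on the LID. With the diet 2 rose in WT mice and 2 fell in *Glis3*-Pax8Cre mice, and the interaction was lower for 1. *Lyve1* was the most abundant over the 16 mice, though not in the ND groups. Lymphatic sums ranged from 29.7 to 40.4 CPM for WT and 36.8 to 74.03 CPM for *Glis3*-Pax8Cre mice on the ND, and from 49.2 to 73.3 CPM for WT and 38.8 to 59.02 CPM for *Glis3*-Pax8Cre mice on the LID. *Pdpn* is named after its values were seen.

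Of 7 follicular markers, the most abundant, *Tg*, was lower in *Glis3*-Pax8Cre mice on either diet, while 2 were higher on the ND and 4 on the LID. The diet raised 2 and lowered 1 in WT mice and raised 3 in *Glis3*-Pax8Cre mice, and the interaction was lower for 1. All 5 macrophage markers were higher in *Glis3*-Pax8Cre mice on the ND and 1 on the LID. Of these 2 rose with the diet in WT mice and 3 fell with it in *Glis3*-Pax8Cre mice, and the interaction was lower for 2. *Csf1r* was the most abundant of them over the 16 mice, though not in each group. Of 5 fibroblast markers 1, *Col1a1*, the most abundant over the 16 mice, was lower in *Glis3*-Pax8Cre mice on the LID and 2 were lower on the ND, while the diet raised 1 and lowered 2 in WT mice and raised 1 and lowered 1 in *Glis3*-Pax8Cre mice. Of 4 adipocyte markers (*Cidec* the most abundant) 1 was higher in *Glis3*-Pax8Cre mice on the LID and 2 were lower on the ND. With the diet 3 adipocyte markers fell in WT mice and 1 rose in *Glis3*-Pax8Cre mice, and the interaction was called for 3, each higher. Of 3 parathyroid markers (*Pth* the most abundant) 1 was lower in *Glis3*-Pax8Cre mice on the LID, and all 3 fell with the diet in either genotype. The C-cell gene *Calca*, the more abundant of 2, was lower in *Glis3*-Pax8Cre mice on the ND (-0.88) and fell with the diet in WT mice (-1.14). Of 5 erythroid markers 1, *Alas2*, was tested, and edgeR did not call it in any comparison.

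The thymocyte sums were 138, 39.2, 9.35 and 7.97 CPM for WT(ND), 11.1, 13.2, 13.1 and 2346 for *Glis3*-Pax8Cre(ND), 4.16, 4.59, 200.1 and 4.66 for WT(LID) and 7.75, 8.02, 7.73 and 292 CPM for *Glis3*-Pax8Cre(LID). The sums of 5 skeletal muscle markers, *Acta1* the most abundant, were 2.21, 82.9, 367 and 2.10 CPM for WT(ND), 1245, 465, 1.60 and 368 for *Glis3*-Pax8Cre(ND), 1.55, 52.6, 983 and 98.2 for WT(LID) and 211, 821, 2.56 and 255 CPM for *Glis3*-Pax8Cre(LID). Both varied from mouse to mouse within groups, and edgeR called 0 of these markers in each comparison (at an unadjusted p under 0.05, 1 thymocyte marker between the ND groups and 0 elsewhere).

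The genes whose levels were most like that of *Vegfa* over the 16 mice, among 11665 genes compared with the 10 members left out, were *Wdr13* (0.893), *Ssu2* (0.891), *Bag2* (0.89), *Gja4* (0.879) and *Mall* (0.87), by Pearson r of log2 CPM. The lowest r with a mouse left out was 0.814, and with group means removed the r were 0.565 to 0.775. For *Kdr* they were *Stab1* (0.96), *Ece1* (0.946), *Col13a1* (0.941), *Sh3pxd2b* (0.937) and *Mmrn2* (0.933), at least 0.92 with a mouse left out and 0.686 to 0.793 with group means removed. Among the members, *Flt4* (r = 0.953) and *Flt1* (r = 0.935) fell within the range of r of these 5 genes. The mice share 4 groups, so these r are a description with no test.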

How the data were processed

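The values are the authors' deposited raw counts per gene, from reads that passed their filter (mean base quality above 20), were aligned with STAR 2.5 (mm10) and were assigned to RefSeq genes by featureCounts 1.5.0-p1 without regard to strand. The libraries were read on a NextSeq or a NovaSeq instrument. Which of these read each library is not given, so the instrument was not fitted. Counts were filtered with filterByExpr, scaled by TMM and fitted with edgeR 4.0.16 (R 4.3.3), and 95% intervals are normal intervals from its standard errors. Alternatives were DESeq2 1.42.0, other scalings, no filter, fewer mice, a replicate block and each mouse left out. The members and lists were chosen with earlier results of these data known. Named genes are the 10 members, the rest of the family, the 4 called genes of the VEGF-responsive list and of the hypoxia list with the largest change on the LID, the most abundant marker of each cell type, and the 5 genes outside the members most like *Vegfa* and *Kdr* with a mean of at least 5 CPM. No duplicate libraries were found (24 pairs within groups, chi-squared over degrees of freedom 33.0 or more). Mice with equal replicate numbers deviated together in the *Glis3*-Pax8Cre groups (r from 0.21 to 0.65 over 4 pairs). A block for replicate number in the *Glis3*-Pax8Cre mice alone was therefore added as an alternative, from this check and not from the labels. The main fit held no such block, and whether equal numbers mark pairs was not tested. In the other comparisons r lay between -0.52 and 0.14.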

Additional observations from a re-analysis of the deposited data

Results flagged for a closer look

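The diet response differed between genotypes by the interaction term (edgeR) for 6 of the 10 genes: *Vegfa* (-0.55, adjusted p = 0.0336), *Kdr* (-1.0, adjusted p = 0.00315), *Flt1* (-1.13, adjusted p = 0.00444), *Flt4* (-1.59, adjusted p = 0.000204), *Angpt2* (-1.80, adjusted p = 0.000284) and *Tek* (-1.57, adjusted p = 2.41e-05). Each response was lower in *Glis3*-Pax8Cre mice, where 7.41% of all genes had a lower and 4.43% a higher response. The *Vegfa* call was lost in 10 of 16 fits with a mouse left out, with scaling by library size alone (adjusted p = 0.0698) and with no filter (adjusted p = 0.0502).

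In 4 of 40 sets of 4 mice (10 genes in 4 groups) a single mouse lay far from the others relative to the range of its group. A rate of about 1 in 20 by chance would hold for independent sets. The 40 sets share the same 16 mice, so that rate gives no test here. WT(ND) replicate 3, which also stood apart as a library, had 23.4 CPM of *Vegfc* and 26.96 CPM of *Pgf*. *Glis3*-Pax8Cre(ND) replicate 4, which held the thymocyte markers, had 13.01 CPM of *Pgf*. WT(LID) replicate 2 had 66.4 CPM of *Tek*, the lowest of its group and above every mouse of the other groups.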

How the results depend on the processing

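Of 1200 values of the 10 genes under alternatives, 1132 kept their side of the threshold, 50 lost a call and 18 gained one. Of the 1132, 34 uncalled values changed sign. At an adjusted p under 0.05, the 7 calls between the LID groups held in every alternative fit tried. The stricter rule given below was counted over all genes and not over the members. Between the LID groups the fold change, not on the log2 scale, was under 2 for *Vegfa* (1.47), *Kdr* (1.48) and *Flt1* (1.88). It was over 2 for *Pgf*, *Flt4*, *Angpt2* and *Tek*. In what follows counts are in the order *Glis3*-Pax8Cre(LID) against WT(LID), *Glis3*-Pax8Cre(ND) against WT(ND), the diet in WT mice, the diet in *Glis3*-Pax8Cre mice, and the interaction. Genes called numbered 5028, 3252, 6943, 4223 and 1969. With a stricter rule, a fold change over 2 and an adjusted p under 0.01, they numbered 1319, 690, 2075, 832 and 603. With each mouse left out in turn they ranged over 4030 to 6035, 2053 to 3662, 5943 to 7929, 3299 to 4768 and 1476 to 2228, and members called over 7 to 8, 1 to 6, 5 to 8, 1 to 2 and 5 to 7. With a block for replicate number in the fit of 16 mice, genes called numbered 4875, 3012, 6812, 4038 and 1871, and *Nrp1* was called between the LID groups (adjusted p = 0.0351). As a block for the 8 *Glis3*-Pax8Cre mice alone it left 2893 genes and 1 member called for the diet. With the mice of the compared groups alone, 5662 genes and 8 members were called between the LID groups, and 1653 genes and 1 member between the ND groups. For the diet, that fit called 8205 genes and 8 members in WT mice, and 2374 genes and 0 members in *Glis3*-Pax8Cre mice. For the diet in *Glis3*-Pax8Cre mice DESeq2, fitted to all 16 mice, called 2 members. Without WT(ND) replicate 3 and *Glis3*-Pax8Cre(ND) replicate 4, genes called numbered 6228, 4152, 7524, 5047 and 2411 and members called 7, 5, 8, 2 and 7.

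*Egr3* between the ND groups changed direction. It was at 0.24 and not called with all mice, from -1.05 to 0.55 with each mouse left out, at -1.05 without *Glis3*-Pax8Cre(ND) replicate 4 (adjusted p = 0.0152) and at -1.15 without both libraries that stood apart (adjusted p = 0.0081). Scaling by library size alone moved the median of all genes by 0.15, 0.12, -0.16, -0.13 and 0.02. It split the calls into 4121 higher and 1841 lower, 2722 higher and 935 lower, 2434 higher and 5203 lower, 1297 higher and 3385 lower and 622 higher and 1035 lower, against 2471 and 2557, 1714 and 1538, 3476 and 3467, 2184 and 2039 and 737 and 1232 with TMM. The cause was not tested. Total counts differed between libraries, and *Angpt2*, the least abundant member per kb, was above the limit of a zero count in every mouse.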
